A study of Mus musculus with 10 samples.

Results

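The MYC and MAX network is a family of 10 transcription factor genes, Myc, Mycn, Max, Mxd1, Mxd3, Mxd4, Mxi1, Mnt, Mlx and Mga, whose messenger RNA was followed here in mouse embryonic fibroblasts. Every probe set annotated to 1 of these symbols alone was taken, which gave 26 of the 45101 probe sets on the arrays. Of these, 16 passed the filter on low values (a log2 value of at least 4 as the mean of at least 1 group), among 20681 that passed in all. The genes were chosen from values of these same arrays, Max for a difference between the lines on its single probe set, so differences between the lines are given as a description with no test. The deposited values were log2 expression values made with GCRMA, and all values below are log2 unless a fold is named.

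The study used RNA of fibroblasts with a conditional Dicer knockout gene (CDKO) and of wild-type (WT) fibroblasts, both grown in DMEM with fetal bovine serum, on 10 Affymetrix arrays in 5 groups of 2. The groups were CDKO cells untreated, CDKO cells treated with 1 µM or 5 µM 4-hydroxytamoxifen (OHT) for 4 days, WT cells treated with 5 µM OHT for 4 days, and untreated WT cells. The series' design set the 4 treated CDKO arrays against the other 6. OHT binds the estrogen receptor, and cells carrying a Cre recombinase fused to a mutant form of that receptor are often given it to switch the enzyme on. What drives Cre here, the number of embryos behind each line and whether replicate arrays hold RNA of independent cultures were not given in the sources used here. One label field describes all samples as conditional knockout cells, while the titles name 4 of them WT, and the titles were followed. Because the 2 arrays of a group may be technical repeats, p-values measure only the spread between these arrays.

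MYC and its relative MYCN, the product of Mycn, are growth-promoting factors that bind DNA as dimers with MAX, mostly at the sequence called the E-box. MXD1, MXD3, MXD4, MXI1 and MNT also pair with MAX at E-boxes, where they recruit SIN3 corepressors and oppose MYC. MLX is a MAX-like partner of MXD1, MXD4, MNT and the glucose-responsive MondoA and ChREBP proteins, and MGA pairs with MAX inside a Polycomb complex that silences germline genes in mouse embryonic stem cells. In fibroblasts MYC is best known as an early response to serum that drives ribosome production, metabolism and entry into the cell cycle.

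The E-box is also found near annotated transcript starts of the network's own genes, so the stretches around it are shown for the members that hold one. The motif searched was CACGTG, which reads the same on both strands, in RefSeq windows of 300 bases (250 before and 50 after an annotated transcript start, build GRCm38.p6). It was present in 4 of the 9 members with a window, against 2187 of 27025 genes in all (8.09%). The lines below give 20 bases on each side, 5′ to 3′ on the gene's strand, with the E-box in capitals. The first base of the motif lay 3 bases before the start its window is drawn around for Max (chr12:76962226-76962271, minus strand), 40 for Mlx (chr11:101087230-101087275, plus strand), 123 for Mnt (chr11:74830781-74830826, plus strand) and 219 for Mxd4 (chr5:34187904-34187949, minus strand). For Max, Mlx and Mnt that start belongs to a transcript that begins inside the gene's annotated span, so the motifs of Max and Mlx lie within the span and that of Mnt at its edge, and for Mxd4 the motif lies outside it.
Max: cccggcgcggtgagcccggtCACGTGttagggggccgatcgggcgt
Mlx: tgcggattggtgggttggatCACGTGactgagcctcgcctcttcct
Mnt: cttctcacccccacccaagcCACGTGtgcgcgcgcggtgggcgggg
Mxd4: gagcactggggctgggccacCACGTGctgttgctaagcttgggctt
The windows of Mycn, Mxd1, Mxd3, Mxi1 and Mga held no CACGTG, and Myc was not in the promoter table. A match describes the letters of the window, and no binding was measured in these samples.

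The arrays differed in ways that touch the results below. The 18S ribosomal RNA control was raised on 3 arrays, both untreated WT arrays (11.7 and 11.1) and the second CDKO 1 µM array (10.5), against 5.32 to 8.36 on the other 7. The same 3 arrays had a Gapdh 3′ probe set above the 5′ one by 0.67 to 1.58, against at most 0.07 elsewhere. CDKO replicates scattered more than WT replicates, with a median SD of 0.287 to 0.344 in the CDKO groups and 0.0717 to 0.0992 in the WT groups, so a spread shared by all groups is too small for CDKO comparisons and too large for WT ones. Of 11 fibroblast markers on the arrays, 10 had a mean of at least 4 in every group, with a list mean of 10.8 to 12.4 on each array. Of 15 macrophage and leukocyte markers 13 also reached 4 in every group, and their list mean was 6.02 to 8.44 on CDKO arrays and 8.45 to 8.78 on WT arrays, with Itgam under 4. Epithelial and skeletal muscle list means were highest in untreated WT cells, at 7.16 to 7.18 and 6.06 to 6.16. In the other groups they were 4.27 to 5.13 and 4.36 to 4.66. Krt8 read 8.59 and 9.04 in untreated WT cells against 2.92 to 3.15 elsewhere, and Myl1 7.82 and 7.16 against 3.16 to 3.55. From untreated to treated WT cells 3 of 4 tested epithelial and 6 of 7 tested muscle markers were negative, with 1 positive in each list. Epcam, Myog, Myod1 and Tnnt3 were under 4 in every group. In such bulk RNA, fewer cells of a type and less RNA per cell cannot be told apart. Dicer1 itself, on its brighter probe set 1427941_at, read 7.09 and 5.99 in untreated CDKO cells, 5.40 and 8.30 at 1 µM and 5.83 and 5.78 at 5 µM, and 7.64 and 7.19 in WT cells at 5 µM against 8.97 and 9.10 in untreated WT cells. On it neither line passed the threshold at 5 µM (CDKO -0.73 ± 0.83 SE, limma adjusted p = 0.929, and WT -1.62 ± 0.83, adjusted p = 0.233). The other Dicer1 probe set, 1460571_at, read 6.33 and 5.93 in untreated CDKO cells, 6.10 and 6.55 at 1 µM and 5.90 and 5.49 at 5 µM, and 5.90 and 5.94 in WT cells at 5 µM against 7.31 and 7.16 in untreated WT cells. There the CDKO difference at 5 µM did not pass (-0.44 ± 0.26, adjusted p = 0.746), while in WT cells Dicer1 was lower with OHT than without (-1.32 ± 0.26, adjusted p = 0.0266). Whether either probe set lies in the deleted part was not given in the sources used here.

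Max, the shared dimer partner (chromosome 12, 76937269 to 76962323, build GRCm38.p6), had the widest range over the 10 arrays of the 16 probe sets. Its probe set 1423501_at read 7.56 and 6.14 in untreated CDKO cells, 6.39 and 7.10 in CDKO cells at 1 µM, and 9.84 and 8.00 in CDKO cells at 5 µM. In WT cells it read 5.18 and 4.37 at 5 µM and 3.23 and 4.53 untreated. All 6 CDKO arrays therefore lay above all 4 WT arrays, and the lowest CDKO array and the highest WT array were 6.14 and 5.18. Of all probe sets tested, 4.09% had every CDKO array above every WT array and 4.08% had every CDKO array below, and the choice of Max by this difference means nothing is read from either share. Untreated CDKO cells exceeded untreated WT cells by 2.98 ± 0.77 (SE of the fit), CDKO cells at 5 µM exceeded WT cells at 5 µM by 4.14 ± 0.77, and treated CDKO cells exceeded the 3 control groups by 2.66 ± 0.49. The mean of untreated WT cells was 3.88, under the filter value of 4, so these differences are measured against a level near background.

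The contrast that chose Max set treated CDKO cells against controls that include untreated CDKO cells. Its differences between treated and untreated CDKO cells, and the interaction, therefore share values with that choice. Their p-values and intervals are given, but they are not independent of it. Both CDKO arrays at 5 µM lay above both untreated CDKO arrays, with means of 8.92 ± 1.30 and 6.85 ± 1.00 (SD, n = 2 each). The difference of 2.06 ± 0.77 (SE), a 4.18-fold higher value with a 95% interval of 0.27 to 3.86 on the log2 scale, did not pass the threshold (limma adjusted p = 0.467). It was 2.27 and 1.85 within the arrays with higher and with lower hybridisation spike-ins, 1 array against 1 in each. CDKO cells at 5 µM also lay above CDKO cells at 1 µM (2.17 ± 0.77, adjusted p = 0.321), while the 1 µM and untreated CDKO arrays overlapped (-0.11 ± 0.77, adjusted p = 1). In WT cells the treated and untreated arrays overlapped (0.90 ± 0.77, adjusted p = 0.469), and the response did not differ detectably between the lines (1.16 ± 1.08, adjusted p = 0.685).

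**Figure D1:**
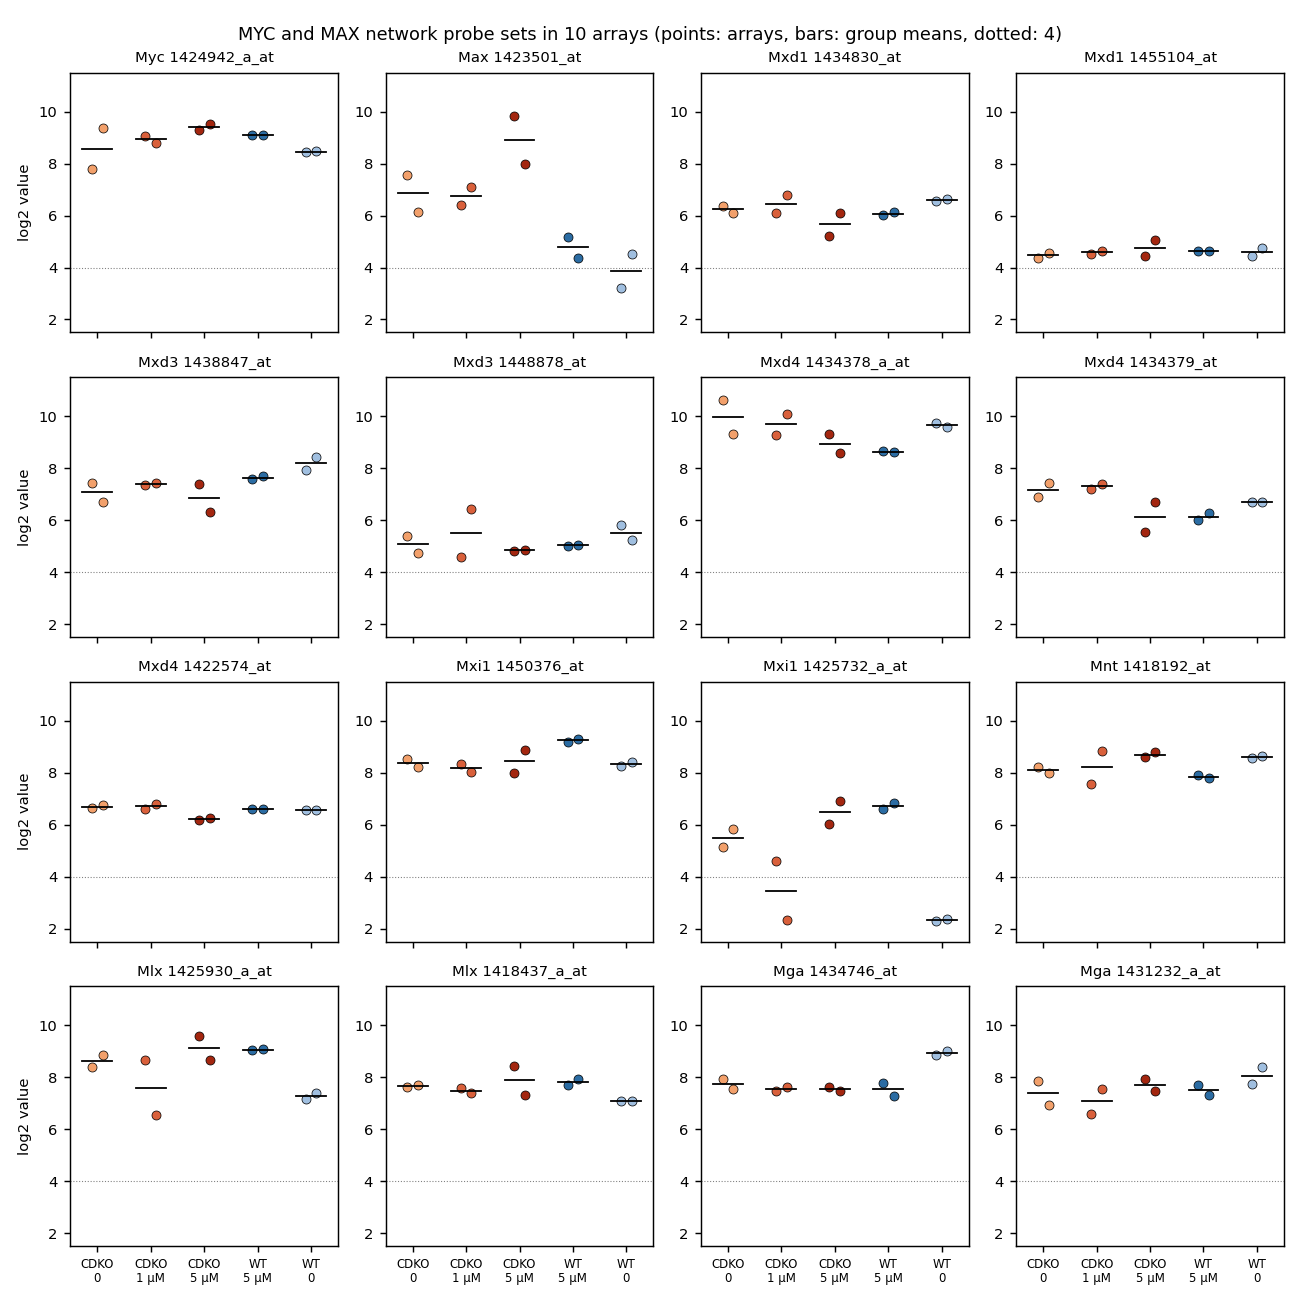
Log2 value (vertical axis) of the 16 network probe sets that passed the filter, with 1 panel per probe set, 1 point per array, bars at group means and a dotted line at 4. The 6 CDKO points of Max lie at 6.14 to 9.84, all above the WT points at 3.23 to 5.18, and 3 points of Mxi1 1425732_a_at lie below the dotted line.

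Myc (chromosome 15, 61985341 to 61990361) was well above background on every array. Its probe set 1424942_a_at read 7.77 and 9.38 in untreated CDKO cells, 9.07 and 8.81 at 1 µM, and 9.31 and 9.51 at 5 µM. In WT cells it read 9.10 and 9.10 at 5 µM against 8.44 and 8.48 untreated. The WT groups did not overlap, while the 2 untreated CDKO arrays were far apart, the second among the highest of all 10 arrays and the first the lowest. The response to 5 µM was 0.84 ± 0.46 in CDKO cells (limma adjusted p = 0.706), while WT cells differed by 0.64 ± 0.46 (adjusted p = 0.385), and neither passed the threshold. The CDKO estimate rests on the untreated arrays, since without the second one it was 1.64 with an adjusted p of 0.0461. Within arrays of higher spike-ins it was 1.54, and within those of lower spike-ins 0.14.

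Mycn, the MYC relative of embryonic and neural tissue, had no probe set that passed the filter. Its 3 probe sets had group means of 2.77 to 3.40, so no level or response can be given for it. The same held for 7 further probe sets of Mxd1, Mxd3, Mxd4, Mnt and Mga, and the 10 together read 2.03 to 4.12 on single arrays.

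The MXD proteins pair with MAX as repressors and are typical of cells that leave the cell cycle, except MXD3, which is found in S phase. Mxd4 on 1434378_a_at read 10.63 and 9.31 in untreated CDKO cells, 9.27 and 10.10 at 1 µM and 9.30 and 8.57 at 5 µM, and 8.65 and 8.61 in WT cells at 5 µM against 9.75 and 9.60 in untreated WT cells. Its second probe set, 1434379_at, read 6.90 and 7.42, 7.22 and 7.40, and 5.52 and 6.68 in CDKO cells at 0, 1 and 5 µM, and 5.99 and 6.27 in treated against 6.69 and 6.69 in untreated WT cells. On both probe sets the treated WT arrays lay below the untreated ones, and so did both 5 µM CDKO arrays below the untreated CDKO arrays. The differences at 5 µM were -1.03 ± 0.48 and -1.06 ± 0.38 in CDKO cells (limma adjusted p = 0.616 and 0.448) and -1.05 ± 0.48 and -0.56 ± 0.38 in WT cells (adjusted p = 0.188 and 0.362), so none passed the threshold. The third Mxd4 probe set, 1422574_at, differed by -0.47 ± 0.18 in CDKO cells (adjusted p = 0.489), and the WT difference was 0.02 ± 0.18 (adjusted p = 0.953).

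Mxd3 on 1438847_at was lower on every CDKO array, at 6.31 to 7.45, than on every WT array, at 7.58 to 8.44. This is a line difference and is given without a test. Neither drug response at 5 µM passed the threshold, at -0.23 ± 0.40 in CDKO cells (limma adjusted p = 0.969), and for WT cells at -0.55 ± 0.40 (adjusted p = 0.392), where both treated arrays lay below both untreated ones. The other Mxd3 probe set, 1448878_at, read 4.58 to 6.41 with the second CDKO 1 µM array highest, and its CDKO and WT arrays overlapped.

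Mxd1 on 1434830_at read 6.38 and 6.11 in untreated CDKO cells, 6.12 and 6.79 at 1 µM and 5.20 and 6.11 at 5 µM, and 6.01 and 6.13 in treated against 6.58 and 6.64 in untreated WT cells. The difference between 5 µM and untreated was -0.59 ± 0.35 in CDKO and -0.54 ± 0.35 in WT cells, and passed the threshold in neither (limma adjusted p = 0.748 and 0.331). Its dimmer probe set 1455104_at stayed at 4.38 to 5.06 throughout.

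Mxi1 (chromosome 19) encodes MXI1, the MXD-family repressor also known as MXD2, and its probe set 1425732_a_at had the largest difference between treated and untreated arrays among the 16. It read 6.60 and 6.85 in WT cells at 5 µM against 2.31 and 2.35 in untreated WT cells. The treated WT arrays were higher by 4.39 ± 0.68 (SE, limma adjusted p = 0.0143), and as the untreated mean of 2.33 is at background the size of the rise is set against background. In CDKO cells the same probe set read 5.16 and 5.84 untreated, 4.59 and 2.33 at 1 µM, and 6.04 and 6.91 at 5 µM. Treated and untreated CDKO arrays did not overlap at 5 µM, yet the difference of 0.98 ± 0.68 did not pass the threshold (adjusted p = 0.809). The interaction, the CDKO response minus the WT response, was -3.41 ± 0.96 with an adjusted p of 0.236, so the lines were not shown to differ in their response. That p fell under the threshold, at 0.0449 to 0.0458, when the CDKO 1 µM group or either of its arrays was left out of the shared spread. CDKO cells at 1 µM differed from untreated CDKO cells by -2.04 ± 0.68 (adjusted p = 0.887) and CDKO cells at 5 µM from those at 1 µM by 3.02 ± 0.68 (adjusted p = 0.166).

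The second Mxi1 probe set, 1450376_at, was well above background on every array. It read 9.20 and 9.32 in treated against 8.27 and 8.40 in untreated WT cells (0.93 ± 0.31, limma adjusted p = 0.0986). In CDKO cells it read 8.53 and 8.22 untreated, 8.34 and 8.03 at 1 µM and 7.99 and 8.88 at 5 µM, groups that overlapped. The 2 Mxi1 probe sets correlated at r = 0.602 over the 10 arrays, which is a description. Which Mxi1 transcripts each detects was not given in the sources used here, and of the 2 only 1425732_a_at passed the threshold, in WT cells.

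Mnt, the most widely expressed of the MAX-binding repressors, lay on opposite sides of its untreated level in the 2 lines on 1418192_at. It read 8.61 and 8.78 in CDKO cells at 5 µM against 8.21 and 8.00 in untreated CDKO cells, and 7.90 and 7.79 in WT cells at 5 µM against 8.55 and 8.65 in untreated WT cells. Neither pair of groups overlapped. In WT cells such a gap was common, with the treated arrays above for 39.1% of all tested probe sets and below for 43.9%. The share in CDKO cells was not worked out. The CDKO response was 0.59 ± 0.37 (limma adjusted p = 0.776), the WT response was -0.76 ± 0.37 (adjusted p = 0.213), and their difference of 1.35 ± 0.53 did not pass the threshold (adjusted p = 0.369). At 1 µM the CDKO arrays read 7.59 and 8.82 and spanned both of the other CDKO groups.

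Mlx, the MAX-like partner of MondoA and ChREBP, read 8.40 and 8.86 in untreated CDKO cells on 1425930_a_at, 8.67 and 6.54 at 1 µM, and 9.59 and 8.65 at 5 µM. In WT cells it read 9.05 and 9.07 at 5 µM against 7.15 and 7.41 untreated. The treated WT arrays lay above the untreated WT arrays by 1.78 ± 0.64, without passing the threshold (limma adjusted p = 0.114), and the other Mlx probe set, 1418437_a_at, lay in the same direction (0.76 ± 0.34, adjusted p = 0.185). In CDKO cells the responses to 5 µM were 0.49 ± 0.64 (adjusted p = 0.946) and 0.21 ± 0.34 (adjusted p = 0.968). The CDKO arrays overlapped between doses on 1425930_a_at.

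Mga, which joins MAX to the Polycomb complex, was the other member that passed the threshold. Its probe set 1434746_at read 7.78 and 7.29 in WT cells at 5 µM against 8.86 and 9.00 in untreated WT cells. The treated WT arrays were lower by 1.39 on the log2 scale (-1.39 ± 0.25 SE, 2.63-fold, limma adjusted p = 0.0207). CDKO cells read 7.95 and 7.54 untreated, 7.47 and 7.64 at 1 µM and 7.64 and 7.47 at 5 µM, all below both untreated WT arrays, and their response to 5 µM was -0.19 ± 0.25 (adjusted p = 0.946). The difference between the responses was 1.20 ± 0.35 with an adjusted p of 0.252. The second Mga probe set, 1431232_a_at, had treated WT arrays at 7.72 and 7.31 below untreated ones at 7.74 and 8.38, a difference of -0.54 ± 0.45 (adjusted p = 0.453).

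**Figure D2:**
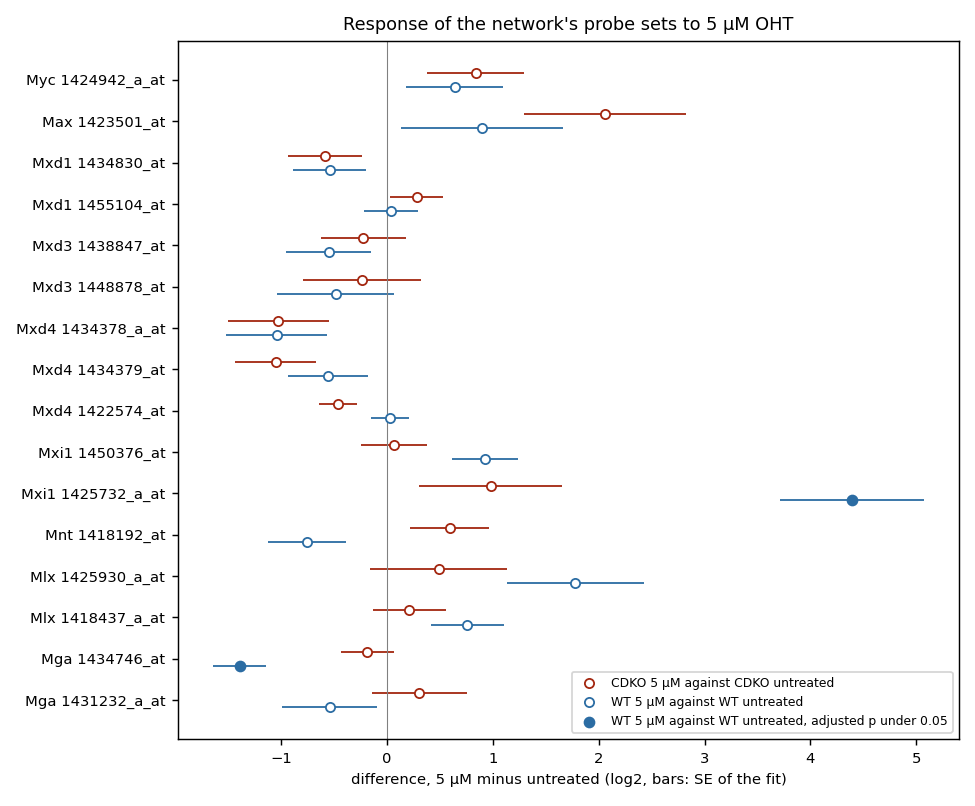
Difference between 5 µM OHT and no treatment (horizontal axis, log2, bars are the SE of the limma fit) for each of the 16 network probe sets, in CDKO cells (red) and WT cells (blue), with filled points at an adjusted p under 0.05. The 2 filled points are Mxi1 1425732_a_at at 4.39 and Mga 1434746_at at -1.39, both in WT cells.

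Over the whole network, 2 of 16 probe sets passed the threshold between treated and untreated WT cells, 1 higher (Mxi1) and 1 lower (Mga), where 9.23% of all tested probe sets passed. The members' share was thus near the background. At an unadjusted p under 0.05 there were 4 members in WT cells, where 30.6% of all tested probe sets were. Their median WT change was -0.23 and that of all tested probe sets -0.06. In CDKO cells 0 of 16 passed at 5 µM, where the background was 0.145% by limma, and the median was 0.14 against -0.00087 for all. At an unadjusted p under 0.05 there were 3 members (Max and the Mxd4 probe sets 1434379_at and 1422574_at), beside 8.89% of all tested probe sets. The Max difference shares values with the contrast that chose it, so nothing is read from that count. At 1 µM 0 of 16 passed, as did 0% of all probe sets, with 1 member at an unadjusted p under 0.05 (Mxi1 1425732_a_at) beside 3.43% of all. Between the CDKO doses 0 of 16 passed against a background of 0.169%, with 5 at an unadjusted p under 0.05 beside 12.9% of all. The interaction passed for 0 of 16 against 0.348%, with 3 at an unadjusted p under 0.05 (Mxi1 1425732_a_at, Mga 1434746_at and Mnt 1418192_at) beside 12.5% of all.

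The treated and untreated WT arrays did not overlap for 14 of the 16 probe sets, 6 with the treated arrays above and 8 with them below. Of all tested probe sets 39.1% had the treated WT arrays above and 43.9% below, so the members' shares were near the background. In CDKO cells the 5 µM and untreated arrays did not overlap for 7 of the 16. The share of all probe sets was not worked out there, so nothing is read from that count. In WT cells only 2 members passed the threshold of the fit that shares its spread with the CDKO groups. With the WT groups fitted alone, 10 of 16 passed and 11315 of all tested probe sets did. Leaving out any 1 of the 4 WT arrays ended both WT calls, with adjusted p of 0.0884 to 0.124 for Mxi1 1425732_a_at and 0.0922 to 0.174 for Mga 1434746_at, although the differences stayed at 4.27 to 4.52 and -1.64 to -1.14.

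The line comparisons, which include the contrast that chose Max, are given for description. Mxi1 1425732_a_at and Mga 1434746_at differed by 3.16 and -1.18 between untreated CDKO and untreated WT cells. These differences use the same untreated WT arrays as the 2 WT calls. The Max differences are given above, and no test of a member is given for these comparisons. Of all tested probe sets, 6.58% passed the threshold between the untreated lines and 1.8% between the lines at 5 µM. Between treated CDKO cells and the 3 control groups 4.08% passed. Nothing about the members is read from these shares.

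The untreated WT arrays, which are the baseline of both WT calls, are also 2 of the 3 arrays with a raised 18S control. Mxi1 1425732_a_at read 2.31 to 2.35 on those 3 arrays and 4.59 to 6.91 on the other 7. Mlx 1425930_a_at read 6.54 to 7.41 on the 3 arrays and 8.40 to 9.59 on the other 7, and Mxd1 1434830_at 6.58 to 6.79 against 5.20 to 6.38. For both Mxi1 and Mlx the second CDKO 1 µM array, the only CDKO array with a raised control, was thus the CDKO array that resembled untreated WT cells. Such a split without overlap was found with the 3 arrays below for 12.3% of all tested probe sets and above for 10.8%, and 3 of the 16 members showed it. Mga 1434746_at did not, since the raised CDKO 1 µM array read 7.64 beside 7.47 on the other 1 µM array. Max did not either, with 7.10 on the raised CDKO array, among the other CDKO values. Both untreated WT arrays had the raised control and neither treated WT array did, so in WT cells the drug and the control cannot be told apart. The untreated WT arrays also had the highest epithelial and skeletal muscle list means. Those lists had median differences of -2.485 and -3.12 between treated and untreated WT cells. These marker differences cannot be told apart from the drug in WT cells either.

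**Figure D3:**
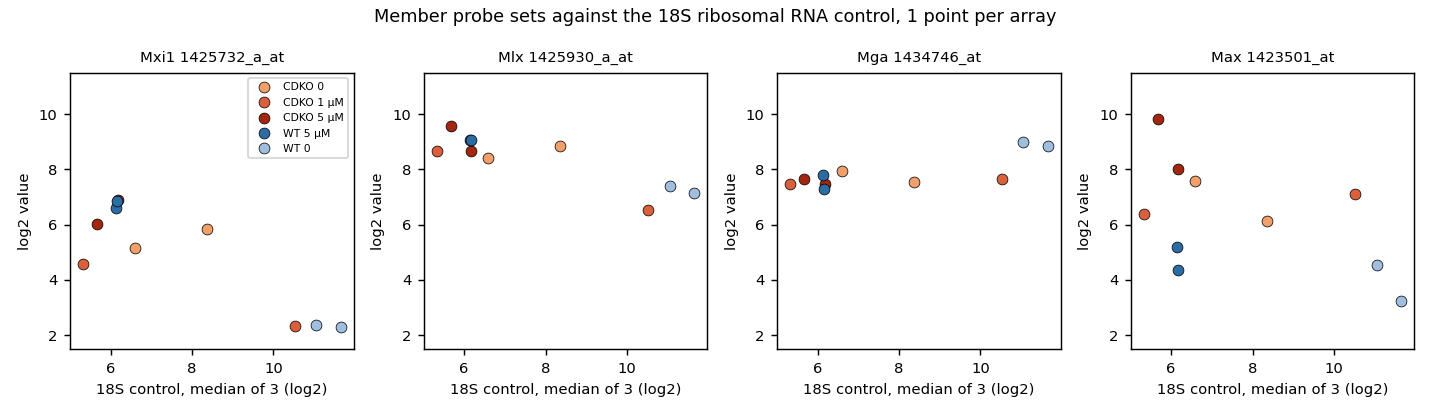
Log2 value of 4 member probe sets (vertical axis) against the median of 3 probe sets of the 18S ribosomal RNA control (horizontal axis, log2), 1 point per array, coloured by group. The 3 arrays with a control of 10.5 to 11.7 have the lowest values of Mxi1 1425732_a_at (2.31 to 2.35) and of Mlx 1425930_a_at (6.54 to 7.41), while Max and Mga show no such split.

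Genes around the network were described from lists, by their counts in the fit over all probe sets. The lists were chosen with earlier results of these data known, so their counts are not independent of those results. The share of all tested probe sets that passed was 9.23% in WT cells and 0.145% in CDKO cells at 5 µM, and at an unadjusted p under 0.05 the shares were 30.6% and 8.89%. Among 32 targets that MYC is known to activate, in ribosome production, nucleotide synthesis and metabolism, 0 passed the threshold in any of the 5 drug comparisons by limma. At 5 µM in CDKO cells 17 were positive and 15 negative with a median of 0.04, and 1 had an unadjusted p under 0.05. In WT cells 12 were positive and 20 negative with a median of -0.07, and 2 had an unadjusted p under 0.05. At 1 µM in CDKO cells 24 were positive and 8 negative, with a median of 0.28 beside -0.04 for all tested probe sets, and 1 had an unadjusted p under 0.05. Between the CDKO doses 4 did, beside 12.9% of all tested probe sets, and for the interaction 0, beside 12.5%. At 1 µM the share of all was 3.43%. Tfrc, the transferrin receptor, was the closest in CDKO cells, at 11.04 and 11.32 with 5 µM OHT against 9.39 and 10.26 untreated (1.36 ± 0.38, limma adjusted p = 0.285). Ldha, the glycolytic lactate dehydrogenase, was the closest in WT cells, at 14.38 and 14.44 against 13.71 and 13.71 (0.70 ± 0.19, adjusted p = 0.0632).

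Of 13 targets that MYC is known to repress, 1 rose in WT cells, where 9.23% of all tested probe sets passed, and 0 passed in CDKO cells at 5 µM. At an unadjusted p under 0.05 there were 6 of the 13 in WT cells (30.6% of all tested probe sets) and 2 in CDKO cells (8.89% of all). Ndrg2, of the NDRG gene family, read 7.48 and 7.52 in treated WT cells against 4.04 and 3.73 in untreated WT cells (3.61 ± 0.24, limma adjusted p = 7.34e-04), and 1 gene of the list still passed without any 1 of the WT arrays. It read 4.96 and 5.21 in untreated CDKO cells, 5.43 and 5.72 at 1 µM and 6.92 and 6.47 at 5 µM, and the difference between 5 µM and untreated was 1.61 ± 0.24, which did not pass the threshold (adjusted p = 0.0765). Gas1, a growth-arrest gene, read 7.21 and 8.31 in CDKO cells at 5 µM against 11.45 and 8.52 in untreated CDKO cells (-2.22 ± 0.84, adjusted p = 0.476).

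Among 20 cofactors and turnover factors of MYC, 6 passed the threshold in WT cells, 1 higher and 5 lower, where 9.23% of all tested probe sets passed. Without any 1 of the 4 WT arrays 0 of the 20 passed. In CDKO cells at 5 µM 0 passed, and 0 had an unadjusted p under 0.05. Skp2, a ubiquitin ligase subunit that acts on MYC, read 8.94 and 8.77 in treated against 10.72 and 10.89 in untreated WT cells (-1.95 ± 0.30, limma adjusted p = 0.0145). Aurka, the mitotic kinase that stabilises MYCN in human neuroblastoma cells, fell by 1.55 (adjusted p = 0.0271). Ccnt1, the cyclin of the elongation kinase, fell by 1.49 (adjusted p = 0.0325) and Ep400, a chromatin remodeller, by 1.24 (adjusted p = 0.0285). Aurka acts in mitosis and Skp2 at the entry into S phase, and 8 of 14 mitosis genes fell in the same comparison (9.23% of all tested probe sets passed), led by Cenpf (-4.39), Mki67 (-3.61), Kif11 (-3.16) and Top2a (-2.48), with a list median of -2.32 beside -0.06 for all. That count was 0 without any 1 of the 4 WT arrays, 2 without either CDKO 5 µM array and 11 without either CDKO 1 µM array. In CDKO cells at 5 µM 0 of the 14 passed, with 0 at an unadjusted p under 0.05 and a median of -0.94. Mki67 read 7.54 and 7.61 in CDKO cells at 5 µM against 9.57 and 8.00 in untreated CDKO cells, and 8.18 and 8.15 in WT cells at 5 µM against 11.80 and 11.74 in untreated WT cells. Whether the Aurka and Skp2 differences belong to a change in cell division was not tested. In WT cells the 18S control differs between the same arrays as the drug, so they cannot be told apart.

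Of 11 partners of MGA in its Polycomb complex, 1 fell in WT cells, Ehmt1, a histone H3 lysine methyltransferase (7.95 and 7.91 in treated against 9.22 and 9.06 in untreated WT cells, -1.21 ± 0.23, limma adjusted p = 0.0257). The background was 9.23%, and 0 of the 11 passed without any 1 of the WT arrays. In CDKO cells 0 changed at 5 µM, with 0 at an unadjusted p under 0.05. Of 12 germline genes known to be silenced by that complex in mouse embryonic stem cells, 11 stayed under 4 in every group. The exception was Tdrkh, an adaptor of the piRNA pathway, at 6.55 and 4.93 in CDKO cells at 5 µM against 4.27 and 5.01 untreated (1.10 ± 0.65, adjusted p = 0.751) and 6.87 and 6.63 in treated against 5.04 and 5.02 in untreated WT cells (1.72 ± 0.65, adjusted p = 0.126). The promoter windows of these germline genes held CACGTG in 9 of 12 genes.

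Of 5 tested targets of the MLX partners MondoA and ChREBP, 1 rose in WT cells, Pfkfb3, a glycolytic regulator, at 8.99 and 9.17 in treated against 7.00 and 6.79 in untreated WT cells (2.19 ± 0.25, limma adjusted p = 0.00574), where the background was 9.23%. That count was 0 without either treated WT array or the second untreated one, and 2 without either untreated CDKO array. Hexokinase gene Hk2 was the closest in CDKO cells, at 11.36 and 11.59 with 5 µM against 9.69 and 10.96 untreated (1.15 ± 0.38, adjusted p = 0.388). Mlxip, which encodes MondoA, read 8.35 and 8.15 in CDKO cells at 5 µM against 7.99 and 7.99 untreated, and 7.57 and 7.57 in treated against 8.73 and 8.28 in untreated WT cells (-0.94 ± 0.29 in WT cells, adjusted p = 0.0838). Mycl, the third MYC family gene, lay at 3.28 to 5.57, and Mlxipl, which encodes ChREBP, did not pass the filter.

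**Figure D4:**
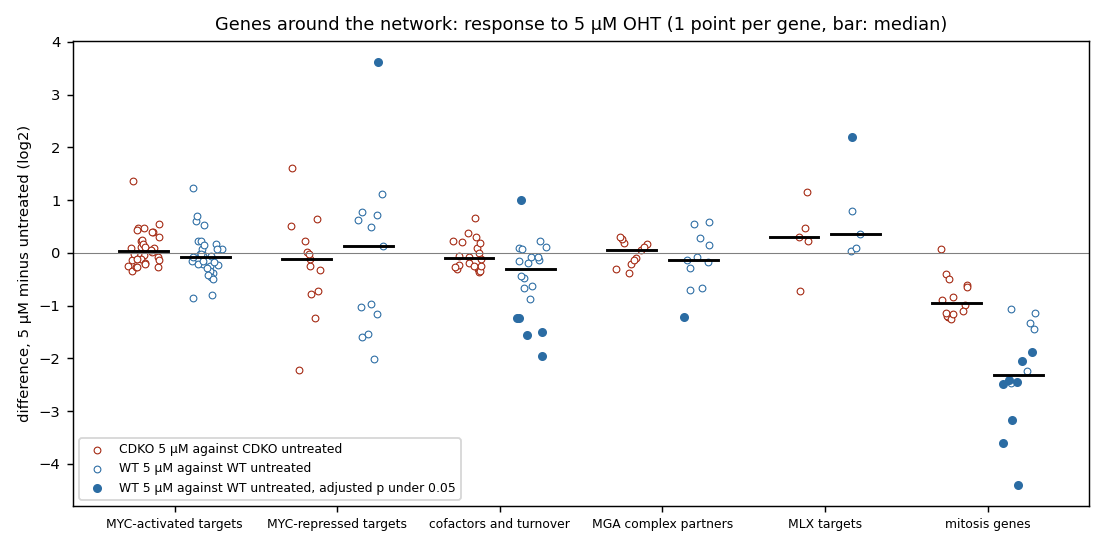
Difference between 5 µM OHT and no treatment (vertical axis, log2) for each tested gene of 6 lists around the network, in CDKO cells (red) and WT cells (blue), with bars at list medians and filled points at an adjusted p under 0.05. The filled points include Ndrg2 at 3.61, Pfkfb3 at 2.19 and 8 mitosis genes, all in WT cells, and the medians of the MYC-activated targets are 0.04 in CDKO and -0.07 in WT cells.

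Probe sets of other genes were ranked by how closely they followed Myc and Max over the 10 arrays, as a description. Those nearest Myc 1424942_a_at were Cd44 (r = 0.967), Ess2 and Rgs16 (both 0.961), Smurf1 (0.960) and Hk2 (0.959). Cd44, a hyaluronan receptor, shared with Myc its lowest value on the first untreated CDKO array (12.5, against 12.8 to 13.8 elsewhere). Those nearest Max 1423501_at were Mrpl51 (r = 0.977), AW209491 (0.970), Clybl (0.961), Lamp2 (0.958) and Ttc39b (0.957). Mrpl51, a mitochondrial ribosomal protein gene, read 4.95 to 5.74 on CDKO arrays and 4.29 to 4.72 on WT arrays, the same split between lines as Max. The points share their arrays and the 18S difference. These were the highest coefficients among the tested probe sets annotated to 1 other gene alone, out of the 20681 tested.

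Probe sets of the same gene followed each other only in part. The 2 probe sets of Mlx correlated at r = 0.790 over the 10 arrays, those of Mga at 0.662, those of Mxd3 at 0.357 and those of Mxd1 at 0.141, and the 3 pairs within Mxd4 lay at 0.386 to 0.700. For Myc and Max there is 1 probe set each, so the Max difference was not repeated by a second measurement on these arrays.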

How the data were processed

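RNA of 10 fibroblast samples in 5 groups was measured on Affymetrix arrays. The deposited values are log2 expression values, which the authors obtained by GCRMA (per the submitters' processing notes), a method that corrects background, normalizes by quantiles and summarises each probe set. Normalization forces like distributions, so a shift of all transcripts is not visible, and low values sit at a background estimate. The annotation was GEO's platform table, with 1 symbol for 34945 probe sets, several for 932 and none for 9160, and 64 controls were left out. Groups came from the sample titles. The members and lists were chosen with earlier results of these data known.

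The values were fitted with limma 3.58.1 in R 4.3.3 (lmFit and eBayes, a mean for each of 5 groups, leaving 5 residual degrees of freedom; Benjamini-Hochberg adjustment over the 20681 probe sets whose brightest group averaged 4 or more; threshold 0.05) and the steps were tested on simulated data. In the simulated data a probe set had the same spread in all groups, unlike the CDKO and WT groups here. Only the comparison of 5 µM with untreated CDKO cells was simulated. The number of arrays limits the precision. Named were every member probe set, up to 4 changed genes per list and comparison with the largest change (where there were none, the 2 of lowest unadjusted p), and the 5 probe sets most like Myc and like Max; a list gene stands as its brightest probe set. Mki67 beside the mitosis list follows that rule in WT cells, and Gas1, Mlxip and Mycl follow it in their own comparisons. Alternatives were no filter, a filter of 6, median centring, quantile normalization, array weights, the compared groups alone, replicate number or spike-in class as a block, and leaving out each array. Promoter windows and gene positions came from RefSeq GRCm38.p6 tables.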

Additional observations from a re-analysis of the deposited data

How the results depend on the processing

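Counts past the threshold depended on how the spread was estimated, while no called difference changed sign under any alternative run. For 5 µM in CDKO cells the 30 probe sets became 46 with no filter, 12 with centred arrays, 2 with array weights, 0 with the compared groups alone and 3 with the replicate block, and 0 to 169 without single arrays (members 0 to 1). For 1 µM the count of 0 was 0 to 521 without single arrays (members 0 to 1, Mxi1 1425732_a_at at -3.17 with adjusted p = 0.0301 without the first 1 µM array). Between the doses 35 became 17 with centred arrays, 16 with quantile normalization, 2 with array weights, 0 alone and 3 with the replicate block, and 3 to 1989 without single arrays (members 0 to 3, namely Mxi1 1425732_a_at, Mlx 1425930_a_at and Mxd3 1448878_at without the first 1 µM array, at 4.15, 2.58 and -1.58, and Mxd4 1434379_at at -1.78 without the second 5 µM array). For 5 µM in WT cells 1909 became 12458 with array weights, 11315 alone and 1190 with the replicate block, the 2 members became 11 with weights and 10 alone, and the ranges without single arrays were 65 to 4498 and 0 to 4, with Mnt and Mlx 1425930_a_at added without either CDKO 1 µM array (adjusted p = 0.0299 and 0.0302 for Mnt, 0.0169 for Mlx) and Mxi1 1450376_at without either CDKO 5 µM array (adjusted p = 0.0469 and 0.0474). The interaction moved from 72 to 194 with no filter, 32 with a filter of 6, 216 alone (1 member, Mxi1 1425732_a_at, adjusted p = 0.0449) and 35 with the replicate block, and 9 to 213 without single arrays (members 0 to 1).

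For the line differences, untreated CDKO against untreated WT cells gave 1360, 830 alone and 2206 with the spike-in block, 255 to 3217 without single arrays, and 2 members became 1 with no filter, with array weights and alone, 0 with the replicate block and 0 to 3 without single arrays. CDKO against WT cells at 5 µM gave 372, 2 alone, 197 with the replicate block, 944 with the spike-in block and 29 to 591 without single arrays, with 1 member becoming 0 with no filter, weights, alone and the replicate block, and 0 to 1 without single arrays. Treated CDKO cells against the 3 control groups gave 843, 104 with weights, 538 with the replicate block, 259 with the spike-in block and 142 to 1492 without single arrays, with 1 member becoming 0 with no filter, weights and the replicate block, and 0 to 2 without single arrays. The cause of these moves was not tested, beyond that fits of fewer groups or arrays have fewer residual degrees of freedom. The groups alone could not be run for the last comparison, which uses all groups, nor the spike-in block for WT cells, which are all in 1 class.

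Replicate numbers were not taken as pairs: replicate differences of 2 groups correlated at -0.453 to 0.431 over probe sets, and the block changed no member's call in the drug comparisons. With 2 arrays a group, even differences of several times their SE could fail to pass. Ndrg2 in CDKO cells at 5 µM, at 1.61 ± 0.24, is an example (limma adjusted p = 0.0765). A difference that did not pass is therefore not shown to be absent.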
